A study of Mus musculus with 8 samples.

Results

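The genes followed here make, break down, bind and read retinoic acid. They are Aldh1a1, Aldh1a2 and Aldh1a3 for synthesis, Cyp26a1 and Cyp26b1 for breakdown, Crabp1 and Crabp2 for binding in the cytoplasm, and the receptor gene Rarb. Each was read from the probe sets annotated to exactly 1 of these symbols, 10 of the 45101 on the array, and where a gene has several, the one used was chosen by its mean intensity over the 8 arrays, the brightest being kept. The genes themselves were picked on earlier results from these arrays, so their differences are given as descriptions with the fit's values. The members are 8 of the 18193 genes with a probe set, and all 8 entered the tests.

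The RNA came from mouse embryos of stage E11.5, as the series title gives it, and was hybridised to 8 Affymetrix arrays. Of these 4 carried control RNA and 4 RNA of mutants in FAK, focal adhesion kinase, a tyrosine kinase of integrin adhesion sites. One pair of arrays came from cranial neural crest cells sorted for p75, a surface receptor of crest cells encoded by Ngfr, from dissected head and thorax, with 3 embryos pooled per array. The other 3 pairs came from origins labelled LM, OFT and UM, names that the labels do not spell out. The sources used here do not give the mutant allele, the controls' genotype beyond wild type in the title, any Cre driver, the strain, or how many embryos made up the RNA of LM, OFT and UM. Ptk2, which encodes FAK, was not analysed here, so the mutant label has no check by the targeted transcript. Each origin had 1 control and 1 mutant array. Comparisons between origins take the 2 arrays of an origin as its replicates, with 1 estimate of spread per gene shared by all 8 arrays. Mutant against control rests on the spread of the difference over the 4 origins. Nothing in the labels says whether the arrays of an origin came from separate dissections, so the p-values measure only the spread between these arrays.

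Retinoic acid is a small lipid derived from vitamin A. Retinol is oxidised to retinal, and the ALDH1A dehydrogenases oxidise retinal to retinoic acid, which enters the nucleus and activates RAR and RXR receptors bound to DNA. CYP26 enzymes clear it, so that the places of synthesis and of breakdown set where in an embryo the signal is seen, and the face, the pharyngeal arches and the outflow of the heart are known to depend on it.

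Cyp26a1 and Rarb are known to be induced by retinoic acid through paired receptor hexamers next to their start, so the 250 bases before each start are shown. They come from RefSeq on build GRCm38.p6, 5′ to 3′ on the strand of the gene. The capitals mark the hexamers of a direct repeat spaced by 5 bases. Rarb lies at chr14:16575477-16575726 on the minus strand, with the repeat at positions -53 to -37 from the start, and Cyp26a1 at chr19:37697558-37697807 on the plus strand, with the repeat at -32 to -16, reading on the opposite strand.
Rarb: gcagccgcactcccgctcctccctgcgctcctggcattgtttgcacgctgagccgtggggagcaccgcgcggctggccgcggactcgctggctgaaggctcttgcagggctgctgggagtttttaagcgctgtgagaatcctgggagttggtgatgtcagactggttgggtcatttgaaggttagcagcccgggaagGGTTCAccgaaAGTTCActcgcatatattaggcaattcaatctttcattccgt
Cyp26a1: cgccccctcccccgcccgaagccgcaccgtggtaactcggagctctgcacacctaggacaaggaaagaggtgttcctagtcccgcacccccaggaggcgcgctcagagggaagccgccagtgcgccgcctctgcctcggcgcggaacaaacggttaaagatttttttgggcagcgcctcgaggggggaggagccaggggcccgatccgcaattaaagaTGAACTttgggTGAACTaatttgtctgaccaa
The hexamers searched were AGGTCA or else AGTTCA or else GGGTCA or else GGTTCA, each followed by any of them, on both strands, in windows of 300 bases that run from 250 before to 50 after a start. Of 32851 such windows in the genome, 32 hold the repeat spaced by 5, or 0.0974%. RefSeq windows were at hand for 6 of the 8 members, 7 windows in all. Those of Aldh1a1, Aldh1a2, Crabp1 and Cyp26b1 do not hold the repeat spaced by 5, and 0 member windows hold the repeats spaced by 2 or by 1, which 0.268% and 0.222% of all windows hold. A match describes the letters of a window and is not a measured binding site.

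Single marker genes set the origins apart. Ngfr reached 1043 and 1422 after the p75 sort, against 47.0 to 149 on the other 6 arrays. Myl7, a heart muscle myosin light chain, had 3664 and 4517 in OFT and at most 24.8 elsewhere. Alx1, of upper facial mesenchyme, had 2702 and 2588 in UM and at most 284 elsewhere, and Dlx5, of the lower jaw, 876 and 765 in LM and at most 280 elsewhere. Not all upper and lower jaw markers followed this split. Of 5 tested upper jaw markers 2 were called lower in LM than in UM and 0 higher (0.819% and 0.738% of all genes). Shox2, of that list, had 497 and 528 in LM against 486 and 477 in UM. Of 6 lower jaw markers 5 were called higher in LM than in UM and 0 lower. The p75-sorted pair stood apart in the Gapdh RNA control but not in that of Actb. Its ratio of the 3′ to the 5′ Gapdh control probe set was 2.82 in the control and 4.91 in the mutant, against 0.700 to 0.986 on the other arrays. Only that pair was sorted, so sorting, RNA handling and origin cannot be told apart in any p75 comparison. Xist, the RNA of X inactivation, stood at 21.0 in the p75 control but 2247 in the p75 mutant, and Y-linked Eif2s3y 6.20 in the OFT control and 151 in its mutant, so the sex makeup of the embryos also differed within those pairs. Over all log2 values the LM mutant was about as close to UM as to LM, with Pearson correlations of 0.983 to the control of UM and 0.981 to its own. It kept LM levels of Hand2, of the lower jaw, at 936 against 1119 in the LM control and 11.8 and 33.0 in UM. Hand2 was as high in OFT, at 1195 and 1030.

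The 3 synthesis genes each had their highest level in a different origin: Aldh1a2 in p75-sorted cells, Aldh1a3 in UM and Aldh1a1 in OFT. Values are intensities as deposited. Differences are on the scale of log2(intensity + 32), with limma's moderated SE after ±, 2 arrays per origin, and p-values adjusted over all 13545 tested genes by the Benjamini-Hochberg method. The members were chosen with earlier results of these data known, so the tests below describe each gene and do not show that retinoic acid genes as a class differ between origins.

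**Figure D1:**
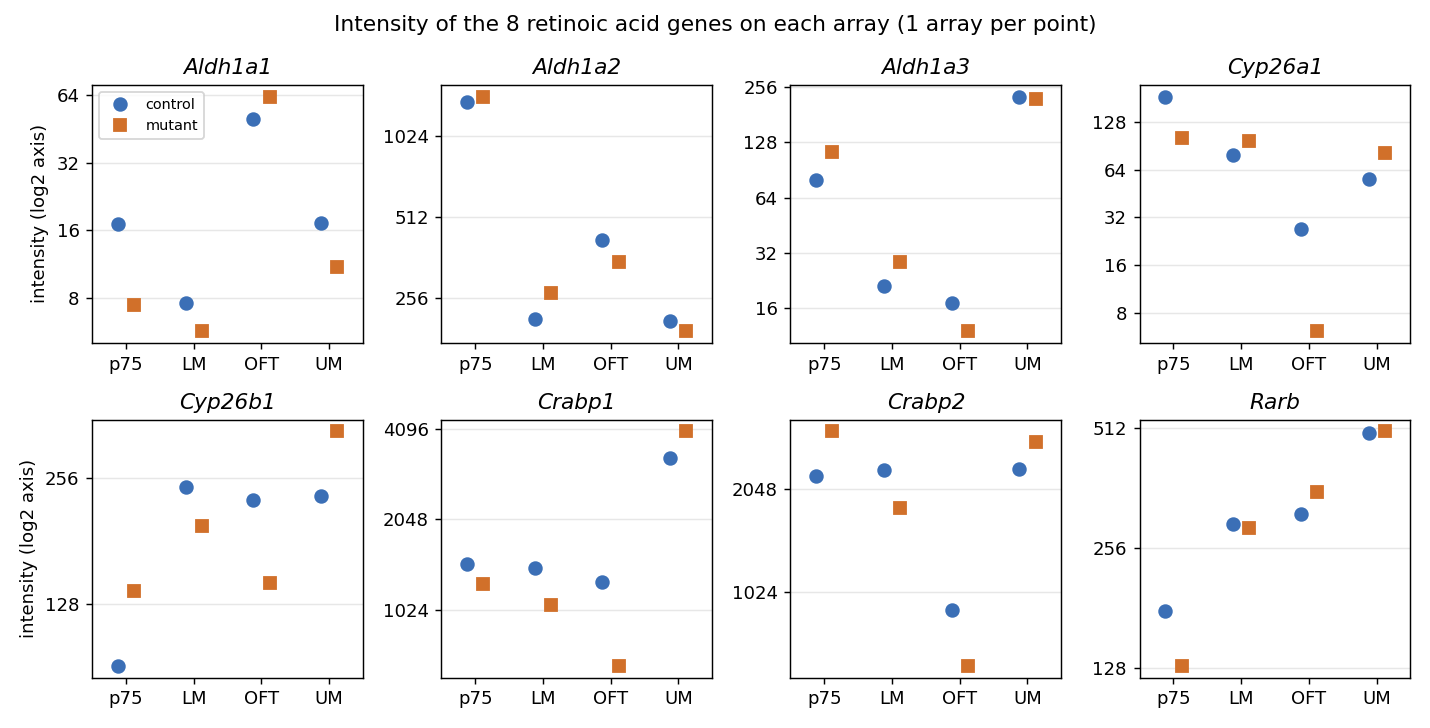
Intensity of each of the 8 genes (vertical log2 axes, each with its own range) in the 4 origins, with 1 point per array, circles for control and squares for mutant. Aldh1a2 reaches 1372 and 1434 in p75-sorted cells, Aldh1a3 227 and 221 in UM and Aldh1a1 50.4 and 63.2 in OFT.

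Aldh1a2 encodes the dehydrogenase that makes most retinoic acid in early embryos. Its intensity was 1372 and 1434 in p75-sorted cells (control first, then mutant, here and below), 422 and 348 in OFT, 214 and 269 in LM, and 210 and 193 in UM. The p75-sorted arrays lay above all others, and the OFT arrays above those of LM and UM. The p75-sorted arrays were higher than OFT by 1.79 ± 0.19 (adjusted p = 3.5e-05), than LM by 2.40 ± 0.19 and than UM by 2.62 ± 0.19. In the comparison with OFT 34.6% of all tested genes were called, and with LM and with UM 42%. OFT was higher than UM by 0.83 ± 0.19 (adjusted p = 0.012), where 12.1% of all genes were called. That call was lost without the OFT control (0.66, adjusted p = 0.23), without the UM mutant (0.76, adjusted p = 0.089), and at a pseudocount of 1 (adjusted p = 0.077). OFT exceeded LM by 0.61 ± 0.19, which missed the threshold at adjusted p = 0.058. LM and UM, next to each other in the order, differed by 0.22, with a 95% interval of -0.19 to 0.63.

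Marker sums of cell types went with these levels only in part. After the p75 sort the summed intensity of 9 neural crest markers was 8925 and 10793, and 1409 to 2998 elsewhere, and that of 11 neuron markers 5554 to 8548 against 998 to 5770. The crest sum includes Ngfr, the sorted receptor. It was alike in OFT (2998 and 2530) and UM (2958 and 2580), while Aldh1a2 was higher in OFT. Of the 9 crest markers 6 were called higher and 2 lower after the sort than in UM (26% and 16% of all genes). Pax3 had 253 and 149 there against 646 and 568 in UM, and Tfap2b 359 and 222 against 792 and 613. Mesothelium and epicardium, known sites of Aldh1a2 in the heart region, were represented by 10 markers. Their sum was 1734 and 1776 in OFT, 808 and 749 in p75-sorted cells and 317 to 417 in LM and UM. In p75-sorted cells most of the sum came from Gpm6a (366 and 270) and Tbx18 (322 and 395), while Tcf21 had 27.2 and 18 there against 80.9 and 88.5 in LM. Of the 8 tested markers of this list 3 were higher and 3 lower in p75-sorted cells than in LM (26.1% and 15.9% of all genes). One of them, Upk3b, had 393 and 361 in OFT and at most 22.0 on the other arrays. The part of these cells in the levels of Aldh1a2 was not tested, and in bulk RNA fewer cells of a type and less RNA per cell cannot be told apart.

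Aldh1a3, the dehydrogenase known from the nasal and eye region, was highest in UM. Its intensity was 227 in the UM control and 221 in the mutant, 80.0 and 114 in p75-sorted cells, 21.2 and 28.7 in LM, and 17.2 and 12 in OFT. UM lay above all other arrays, and p75-sorted cells above LM and OFT. UM was higher than LM by 2.17 ± 0.19 (adjusted p = 6.7e-05), in a comparison that called 1.56% of all genes. It was higher than OFT by 2.46 ± 0.19 and than p75-sorted cells by 1.0 ± 0.19 (adjusted p = 0.0013). The p75-sorted arrays in turn exceeded LM by 1.17 ± 0.19 (adjusted p = 4.8e-04) and OFT by 1.46 ± 0.19. LM and OFT differed by 0.29 (adjusted p = 0.39). None of these 5 calls was lost in any alternative that was run. At a pseudocount of 1 the difference of OFT from UM was -3.87, and p75-sorted cells exceeded LM by 1.91 and OFT by 2.65. With the mean of the 3 probe sets the last was 0.92. The difference of LM from UM ran from -3.13 to -1.64 over the alternatives.

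The other probe sets of Aldh1a3 gave the same order of its upper origins. The second had intensities of 75.2 and 84.6 in UM, 24.3 and 35.3 in p75-sorted cells and 8.64 to 12.4 in LM and OFT. The third had 59.3 and 57.7 in UM, 34.5 and 28.5 in p75-sorted cells and 2.51 to 5.83 in LM and OFT. In all 3 probe sets the UM arrays did not overlap the p75-sorted arrays, nor these the LM and OFT arrays. Surface epithelium moved in part with Aldh1a3: the summed intensity of 12 epithelium markers was 2879 and 3390 in UM, 1964 to 2261 in LM and OFT and 613 to 703 in p75-sorted cells. In p75-sorted cells the epithelium sum was below that of LM and OFT, and Aldh1a3 was above. The part of epithelium in the levels of Aldh1a3 was not tested.

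**Figure D2:**
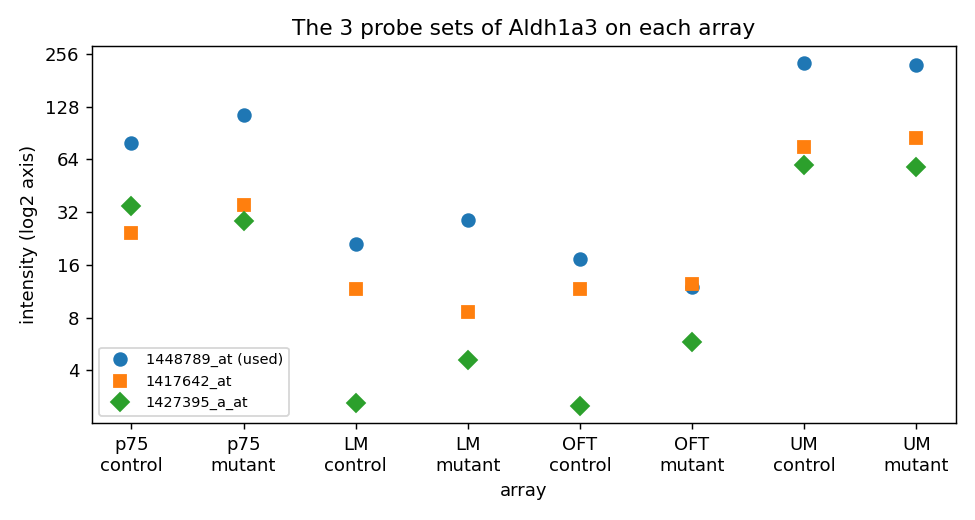
Intensity (log2 axis) of the 3 probe sets of Aldh1a3 on each of the 8 arrays, with 1 symbol per probe set. All 3 are highest on the UM arrays, at 57.7 to 227, and next on the p75-sorted arrays, at 24.3 to 114.

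Aldh1a1, a dehydrogenase of retinal that is prominent in the eye and liver, was dim. Its intensity was 50.4 in the OFT control and 63.2 in the mutant, 17.2 and 10.9 in UM, 17.0 and 7.43 in p75-sorted cells, and 7.57 and 5.67 in LM. Only its 2 OFT arrays lay above 19.4, the level that a gene had to exceed on 2 arrays to be tested, so it entered the tests through OFT alone, the origin where it was high, and its calls there are no support for a difference of the members as a group. OFT was higher than LM by 1.20 ± 0.19 (adjusted p = 0.0012, and 0.0037 with no filter on low values), in a comparison that called 10.9% of all genes. It was higher than UM by 0.95 ± 0.19 and than p75-sorted cells by 1.01 ± 0.19, with adjusted p = 0.011 and 0.0037 when no filter was applied. Both calls were lost without the OFT mutant (adjusted p = 0.11 and 0.051). The size depends on the pseudocount at such levels, with 2.93 above LM and 1.96 above UM at a pseudocount of 1, and 0.77 and 0.63 at 64. Against OFT, p75-sorted cells were at -2.22 and -0.66. UM, p75-sorted cells and LM did not differ beyond their spread, with gaps of 0.06 and 0.19 between neighbours (adjusted p = 0.81 and 0.45). Heart muscle markers set OFT apart as well, with a summed intensity over 10 genes of 16340 and 18899 against 80.7 to 531 elsewhere. Their part in the Aldh1a1 level was not tested.

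The 2 breakdown genes did not share an order of origins. Cyp26a1 was lowest in OFT and Cyp26b1 in p75-sorted cells, where Cyp26a1 was highest. Both encode cytochrome P450 enzymes that hydroxylate retinoic acid.

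Cyp26a1 had intensities of 187 and 102 in p75-sorted cells (control, then mutant), 79.4 and 97.8 in LM, 56.4 and 81.8 in UM, and 27.2 and 6.09 in OFT. The OFT arrays lay below all others, while those of LM and UM overlapped. OFT was lower than p75-sorted cells by 1.85 ± 0.26 (adjusted p = 2.6e-04). It was lower than LM by 1.34 ± 0.26 (adjusted p = 0.0051) and than UM by 1.08 ± 0.26 (adjusted p = 0.017). The last 2 calls rested on the OFT mutant, where Cyp26a1 was near background: without it the differences were 1.04 (adjusted p = 0.096) and 0.78 (adjusted p = 0.21), and the UM call was also lost without the UM mutant, at 0.71 (adjusted p = 0.19). At a pseudocount of 1 they were larger but not called, at -2.66 (adjusted p = 0.087) and -2.29 (adjusted p = 0.12), and p75-sorted cells exceeded OFT by 3.30. The p75-sorted arrays exceeded UM by 0.77 ± 0.26 (adjusted p = 0.031), and without the p75-sorted control by 0.43 (adjusted p = 0.33) or without the UM control by 0.41 (adjusted p = 0.32). That call was also lost with quantile normalization (adjusted p = 0.073), with no filter (0.063) and at a pseudocount of 1 (0.26). Over LM the p75-sorted excess was 0.51, with a 95% interval of -0.05 to 1.08.

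Cyp26b1 had intensities of 232 and 331 in UM, 243 and 196 in LM, 226 and 144 in OFT, and 90.7 and 137 in p75-sorted cells. The p75-sorted arrays were below every other array, with the OFT mutant close at 144 against 137. LM overlapped both UM and OFT, while both UM arrays lay above both OFT arrays. The gaps of 0.30 between UM and LM and 0.24 between LM and OFT did not pass (adjusted p = 0.97 and 0.61). The p75-sorted arrays were lower than UM by 1.10 ± 0.25 (adjusted p = 0.0039) and than LM by 0.80 ± 0.25 (adjusted p = 0.022). Without the p75-sorted control these were 0.81 (adjusted p = 0.074) and 0.51 (adjusted p = 0.25). The UM call was lost without the UM mutant (0.81, adjusted p = 0.052), and the LM call without the LM control (0.60, adjusted p = 0.13) and at a pseudocount of 1 (adjusted p = 0.094). Against OFT the difference of 0.56 missed the threshold (adjusted p = 0.098).

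The binding proteins were the brightest probe sets among the members, though levels of different probe sets are not comparable. CRABP1 and CRABP2 hold retinoic acid in the cytoplasm, and CRABP2 is known to hand it to RAR in the nucleus. Crabp1 stood out in UM and Crabp2 in OFT, where it was low.

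Crabp1 had intensities of 3286 and 4016 in UM, 1455 and 1251 in p75-sorted cells, 1417 and 1064 in LM, and 1267 and 668 in OFT. UM lay above all 6 other arrays, which overlapped. UM was higher than LM by 1.54 ± 0.24 (adjusted p = 0.0049), than p75-sorted cells by 1.41 ± 0.24 (adjusted p = 7.3e-04) and than OFT by 1.94 ± 0.24 (adjusted p = 1.7e-04). The LM call was lost without the UM mutant (1.15, adjusted p = 0.077) and at a pseudocount of 1 (adjusted p = 0.17). Between p75-sorted cells and LM the gap was 0.13, with a 95% interval of -0.39 to 0.66, and between LM and OFT 0.40 (adjusted p = 0.34).

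Crabp2 had intensities of 2234 and 3020 in p75-sorted cells, 2344 and 2805 in UM, 2325 and 1796 in LM, and 902 and 620 in OFT. Both OFT arrays lay below the lowest of the other 6, and the p75-sorted arrays overlapped those of UM and LM, while both UM arrays lay just above both LM arrays. OFT was lower than LM by 1.41 ± 0.23 (adjusted p = 0.0019), than UM by 1.73 ± 0.23 (adjusted p = 3.4e-04) and than p75-sorted cells by 1.75 ± 0.23 (adjusted p = 1.9e-04). The LM call was lost at a pseudocount of 1 (adjusted p = 0.064). The p75-sorted arrays and UM differed by 0.02, with a 95% interval of -0.49 to 0.53, and UM and LM by 0.32 (adjusted p = 0.91).

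Rarb encodes retinoic acid receptor beta, whose own gene is a target of the receptor. It had intensities of 496 and 501 in UM, 312 and 353 in OFT, 293 and 287 in LM, and 178 and 130 in p75-sorted cells. No origin overlapped another, but the gaps of UM over OFT (0.54 ± 0.19, adjusted p = 0.086) and OFT over LM (0.18, adjusted p = 0.61) did not pass. The p75-sorted arrays were lower than UM by 1.53 ± 0.19 (adjusted p = 7.8e-05), than OFT by 0.98 ± 0.19 (adjusted p = 0.0020) and than LM by 0.81 ± 0.19 (adjusted p = 0.0046). The OFT call was lost without the OFT mutant (0.84, adjusted p = 0.052) and the LM call without the p75-sorted mutant (0.59, adjusted p = 0.082). UM exceeded LM by 0.72 (adjusted p = 0.10).

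Set side by side, Aldh1a2 was highest and Rarb lowest on the same p75-sorted arrays, and over the 8 arrays their log2 values had a Pearson correlation of -0.90. Cyp26a1 and Rarb, the pair with the repeat spaced by 5 shown above, had -0.48. Aldh1a2 and Cyp26a1 had 0.42. Other members reached similar sizes, such as -0.92 for Aldh1a1 with Crabp2 and -0.84 for Aldh1a2 with Cyp26b1. These are descriptions over 8 arrays that share 4 origins. Among the other genes with that repeat in a RefSeq window, 6 were tested: Blvrb, Hbb-y, Ppbp, Prokr2, Syndig1 and Tnfsf13b. Of the 8 tested genes with it, Cyp26a1 and Rarb included, 1 was higher and 3 were lower in p75-sorted cells than in UM, where 26% and 16% of all genes were. Against OFT the counts were again 1 and 3 (19.2% and 15.4% of all genes), and against LM 0 and 3 (26.1% and 15.9%). In OFT 1 was higher and 2 were lower than in LM (8.77% and 2.18%), and likewise against UM (9.01% and 3.09%). Between LM and UM 0 were called.

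By comparison, 3 of the 8 members were called between OFT and LM, where 10.9% of all genes were. Of these 1 was higher in OFT, as were 8.77% of all genes, and 2 were lower, as were 2.18%. Between OFT and UM 6 members were called, against 12.1% of all genes, with 2 higher in OFT (9.01% of all genes) and 4 lower (3.09%). Between LM and UM 2 were called, against 1.56%, both lower in LM, as were 0.819% of all genes, while 0.738% were higher. Between p75-sorted cells and LM 4 members were called, 2 in each direction. That is near the background of 42% of all genes, with 26.1% higher and 15.9% lower. Between p75-sorted cells and OFT 6 were called against 34.6%, with 4 higher (19.2% of all genes) and 2 lower (15.4%). Between p75-sorted cells and UM 6 were called against 42%, with 2 higher (26% of all genes) and 4 lower (16%). Without Aldh1a1, which was tested only through OFT, 2 of 7 members were called between OFT and LM, 5 of 7 between OFT and UM and 5 of 7 between p75-sorted cells and OFT. The split of all genes by direction depends on the scaling. Between OFT and LM it was 1188 higher and 295 lower as deposited, 941 and 487 with quantile normalization, and 817 and 848 with a common median. Between OFT and UM it went from 1220 and 418 to 1010 and 613, and to 901 and 763. For p75-sorted cells against LM it went from 3539 and 2152 to 2807 and 2788, and to 2681 and 3053, and against UM from 3516 and 2168 to 2829 and 2788, and to 2866 and 2821. The common median shifts each difference of OFT from LM by -0.17 and from UM by -0.13, and of p75-sorted cells from LM by -0.16 and from UM by -0.12. The median difference of the members was -0.26 for OFT against LM, -0.81 for OFT against UM and -0.31 for LM against UM. For p75-sorted cells it was 0.26 against LM, 0.997 against OFT and -0.53 against UM. The medians of all tested genes lay between -0.005 and 0.09. The members were picked on earlier results, so these medians do not describe retinoic acid genes as a class. The count over all genes varied with single arrays, from 646 to 1895 between OFT and UM and from 507 to 1566 between OFT and LM, and the lowest of each came without the OFT control. Both also moved by over 1.5 times without the OFT mutant (881 and 810), the first without the UM control (943) or the UM mutant (1018), and the second without the LM control (903). The 211 genes called between LM and UM became 110 to 125 without either UM array or the LM control. Without the p75-sorted mutant the counts against LM, OFT and UM were 3227, 2209 and 3086 in place of 5691, 4693 and 5684, and against OFT 1817 without the OFT mutant and 2987 without the OFT control.

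**Figure D3:**
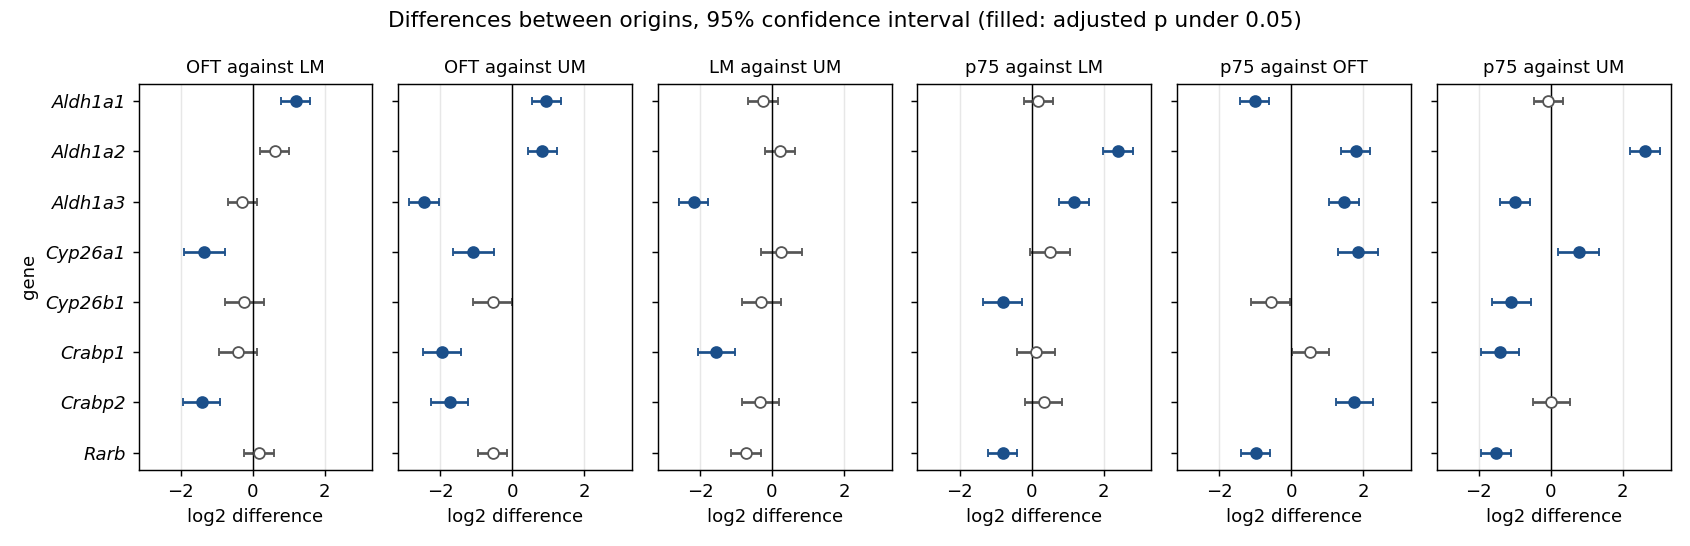
Difference in log2(intensity + 32) between origins for each of the 8 genes, first origin minus second, with the 95% confidence interval from limma. Filled symbols have an adjusted p under 0.05: 3 of 8 for OFT against LM, 6 for OFT against UM, 2 for LM against UM, and 4, 6 and 6 for p75-sorted cells against LM, OFT and UM.

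Mutant against control asks which transcripts differ between embryos labelled as FAK mutants and those labelled as controls. No member passed: limma called 0 of 13545 genes, 0% of those tested, and 3.03% had an unadjusted p under 0.05. The largest mean difference was that of Crabp1, at -0.31 ± 0.17 (n = 4 pairs, adjusted p = 1.0), lower in the mutant in 3 of 4 pairs. By origin the difference was -0.89 in OFT, -0.40 in LM, -0.21 in p75-sorted cells and 0.29 in UM. The 95% interval ran from -0.68 to 0.07. The summed intensity of the 11 neuron markers differed within pairs too, at 8548 in the control and 5554 in the mutant of p75-sorted cells, 5770 and 3706 in OFT, 2562 and 1656 in UM, and 998 and 1492 in LM. Its part in these values was not tested.

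Cyp26a1 differed by -0.70 in p75-sorted cells, -0.64 in OFT, 0.22 in LM and 0.37 in UM, with a mean of -0.19 ± 0.18. Cyp26b1 differed by 0.46 in p75-sorted cells and in UM, by -0.27 in LM and by -0.56 in OFT. The pairs thus lay on both sides of 0 for each breakdown gene, and for Cyp26b1 the mean was 0.02 ± 0.18. Crabp2 differed by 0.43 in p75-sorted cells, 0.26 in UM, -0.37 in LM and -0.52 in OFT. Aldh1a1, Aldh1a2, Aldh1a3 and Rarb had means between -0.09 and 0.10, and each of their single pairs lay between -0.38 and 0.38. Over the 8 members, 95% intervals of the mean reached from -0.68 to 0.41 on the scale of log2(intensity + 32), which understates changes of dim genes such as Aldh1a1.

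Within OFT the median difference of the 8 members was -0.39, where that of all tested genes was -0.05. In UM it was 0.13 (0.04 for all tested genes), in p75-sorted cells -0.08 (-0.02) and in LM -0.05 (-0.04). The sex makeup of the embryos differed within the OFT and p75-sorted pairs, and its part in these values was not tested. On the scale of log2(intensity + 32) 0 of the members reached a difference of 1 in any pair, which 0.199% to 0.568% of tested genes did. In the intensities themselves, near background, Cyp26a1 was 27.2 and 6.09 in OFT and Aldh1a1 17.0 and 7.43 in p75-sorted cells. With 1 array per genotype in an origin these values have no replicate check.

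**Figure D4:**
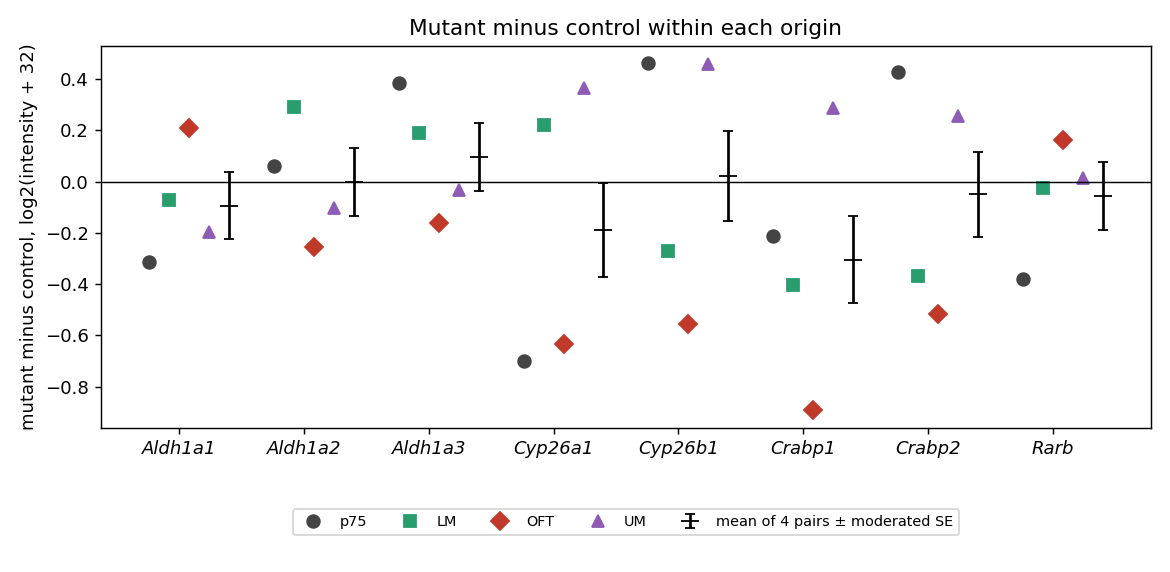
Mutant minus control in log2(intensity + 32) for each of the 8 genes, with 1 symbol per origin and, in black, the mean of the 4 pairs with its moderated SE. The OFT pair of Crabp1 lies lowest, at -0.89, and no mean passes the test.

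The wider pathway was read from lists of known genes. Of 10 genes of retinol uptake, transport and storage 9 had a probe set and 4 were tested. Of these 0 were called among OFT, LM and UM, where 1.56% to 12.1% of all genes were. In p75-sorted cells 2 were higher than in LM, in OFT and in UM each, as were 26.1%, 19.2% and 26% of all genes. Those against UM were Dgat1 and Ttr. Dgat1, which esterifies lipids and retinol, stood at 304 and 449 after the p75 sort, against 135 to 192 elsewhere, and was higher than UM by 1.10 ± 0.21 (adjusted p = 0.0015). Ttr, the blood carrier of thyroid hormone and of retinol with its binding protein, was higher there than in UM by 4.38 ± 0.77 (adjusted p = 8.5e-04), or 7.89 at a pseudocount of 1. Its values were 989 and 464 in p75-sorted cells, 814 and 6.82 in OFT, and at most 3.73 in LM and UM. The OFT control lay with the p75-sorted arrays for Ttr and the OFT mutant with LM and UM. Stra6, the cell surface receptor for retinol uptake, was higher in p75-sorted cells than in OFT by 0.81 (adjusted p = 0.012), a call lost without the p75-sorted control or the OFT control.

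Of 10 tested enzymes of retinol and retinal oxidation and reduction, 0 were called between LM and UM or between OFT and LM. Only 1, Rdh10, was higher in OFT than in UM, as were 9.01% of all genes. In p75-sorted cells 2 were higher than in UM, Rdh10 and Rdh11, as were 26% of all genes. There 4 were higher than in LM (26.1% of all genes) and 2 than in OFT (19.2%), and 0 were lower in each comparison. Rdh10, which makes the retinal that ALDH1A enzymes use, had intensities of 579 and 604 in p75-sorted cells, 547 and 584 in OFT, 401 and 353 in LM and 298 and 354 in UM. The arrays of p75-sorted cells and OFT lay above those of LM and UM. Its excess in p75-sorted cells over UM was 0.80 ± 0.18 (adjusted p = 0.0036), and the OFT excess over UM of 0.74 was lost without either OFT array or the UM control (adjusted p = 0.13 to 0.15). Rdh11, a retinol dehydrogenase, exceeded UM in p75-sorted cells by 0.65 (adjusted p = 0.017), but with the mean of its probe sets the difference was -0.14, in the opposite direction, and the call was lost without either p75-sorted array or the UM mutant. Fabp5, a lipid carrier that can also bind retinoic acid, was higher in p75-sorted cells than in OFT by 0.81 ± 0.17 (adjusted p = 0.0039).

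Among the other receptors, 3 of 5 were higher and 1 lower in p75-sorted cells than in UM, where 26% and 16% of all genes were. Rxrb, a partner of the retinoic acid receptors, exceeded UM by 1.64 ± 0.30 (adjusted p = 0.0011), with 572 and 594 against 143 and 189. Rxrg exceeded it by 1.63 ± 0.18 (adjusted p = 3.1e-05), with 82.3 and 103 against 2.97 and 13.9, or by 3.60 at a pseudocount of 1. By pair, Rxrb differed between mutant and control by -1.20 in LM, -0.74 in OFT, 0.05 in p75-sorted cells and 0.34 in UM. Rxra in p75-sorted cells exceeded UM by 1.22 (adjusted p = 0.0016), or by 0.06 with the mean of its probe sets (adjusted p = 0.77). Rara was dim, at 4.95 and 21.7 in p75-sorted cells and 32.7 and 45.0 in UM. It was lower in p75-sorted cells than in UM by 0.66 (adjusted p = 0.015), or by 1.76 at a pseudocount of 1 and 0.42 at 64. That call was lost without the p75-sorted control, where the difference was 0.44, or without either UM array. Rarg was lower in OFT than in UM by 0.70 and than in LM by 0.66, and Rxrg higher in OFT than in UM by 0.71, and each of these 3 calls was lost without any one of the 4 arrays compared. Between LM and UM 0 of 5 receptors were called. Of 8 coregulators with a probe set and tested, 0 were called among LM, OFT and UM. In p75-sorted cells the coactivator gene Ep300 was higher than in UM by 0.58 (adjusted p = 0.020) and Ncoa6 lower by 0.48 (adjusted p = 0.038). The first call was lost without the p75-sorted mutant or the UM mutant. It was also lost with quantile normalization, a common median or a pseudocount of 1 (adjusted p = 0.054 to 0.065). The second was lost without any p75-sorted, OFT or UM array, and at a pseudocount of 1 (adjusted p = 0.067).

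Genes known to respond to retinoic acid in embryos were mostly higher in OFT than in LM and UM. Of 20 listed, 16 had a probe set and 15 were tested. In OFT 11 were higher and 1 lower than in UM, and 10 higher and 1 lower than in LM, with medians of 1.67 and 1.74 where all tested genes had 0.01 and 0.02. Of all genes 9.01% were higher and 3.09% lower than in UM, and 8.77% and 2.18% than in LM. In p75-sorted cells 12 were higher and 0 lower than in UM (26% and 16% of all genes), 8 and 0 than in LM (26.1% and 15.9%), and 3 and 7 than in OFT (19.2% and 15.4%). Many of them are Hox genes, which also mark position along the body axis. Hoxa4, Hoxa5, Hoxb5 and Tbx5 had no more than 11.6 in LM and UM. They exceeded the level needed for testing only on OFT and p75-sorted arrays, so they were tested through the origins where they were high. The list was also chosen with earlier results of these data known. Its counts and medians therefore describe these genes and do not show that retinoic acid responsive genes as a class differ between origins. Between LM and UM 1 was called, where 1.56% of all genes were. This was Meis2, higher in LM by 0.84 ± 0.19 (adjusted p = 0.045), and that call was lost without any one of the 8 arrays, at adjusted p-values of 0.052 to 0.38.

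Tgm2, transglutaminase 2, is a classic retinoic acid target. Its intensity was 480 and 470 in OFT, 375 and 280 in p75-sorted cells, 48.2 and 34.1 in LM, and 37.7 and 33.2 in UM. OFT and p75-sorted cells did not overlap LM and UM. OFT exceeded UM by 2.91 ± 0.18 (adjusted p = 4.5e-07), and p75-sorted cells exceeded UM by 2.40 ± 0.18, or 1.17 when probe sets ending in _x_at were left out, since these may cross-hybridise. Hoxa5 had 247 and 221 in p75-sorted cells, 199 and 186 in OFT and at most 11.6 in LM and UM, and exceeded UM by 2.77 ± 0.18 in p75-sorted cells and by 2.53 ± 0.18 in OFT. Nr2f1, an orphan nuclear receptor gene, went the other way. It had 788 and 552 in OFT, 1861 and 1817 in LM and 2546 and 2083 in p75-sorted cells, lower in OFT than in LM by 1.43 ± 0.18 (adjusted p = 2.3e-04) and than in p75-sorted cells by 1.76. Below UM it lay by 0.73 (adjusted p = 0.021), a call lost without any one of the OFT and UM arrays. Hoxa3 was higher in OFT than in UM by 3.07 and than in p75-sorted cells by 1.36, Hoxb4 higher in OFT than in LM by 2.40, and Hoxb5 higher in p75-sorted cells than in UM by 3.38. With the mean of its probe sets the Hoxa3 values were 1.25 and 0.54, and the first was 6.72 at a pseudocount of 1. At that pseudocount Hoxb4 was 4.80 and no longer called (adjusted p = 0.061), and Hoxb5 was 7.33. The Hoxa5 differences from UM were then 4.92 and 4.65, and with the mean of its probe sets the OFT value was 1.62. Between mutant and control 0 of the 15 passed.

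**Figure D5:**
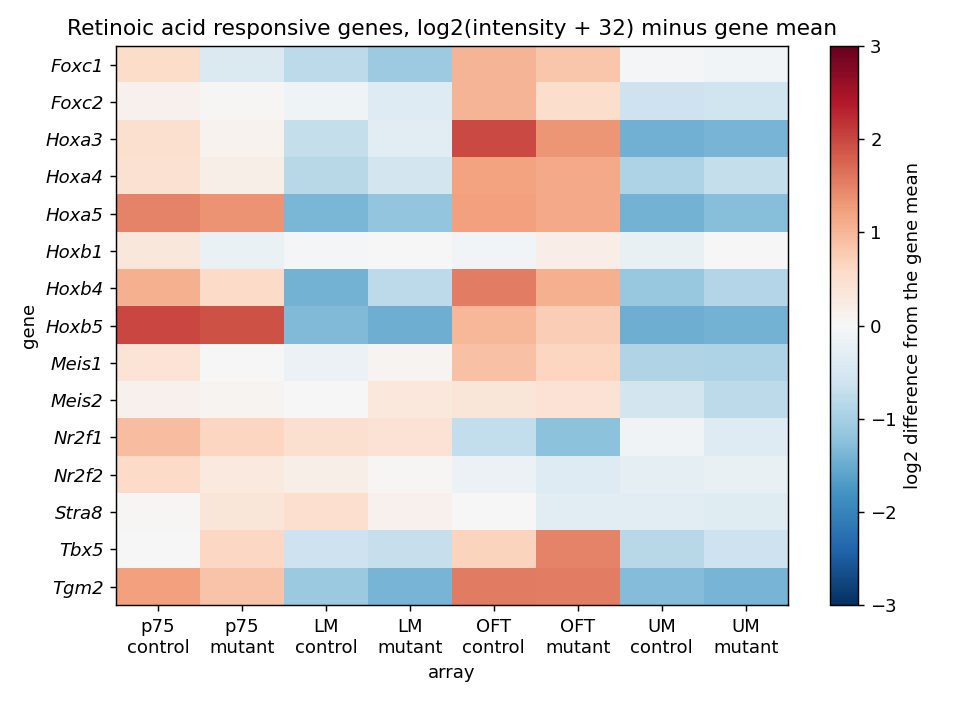
Log2(intensity + 32) minus the mean of the gene over the 8 arrays (colour scale), for the 15 tested genes known to respond to retinoic acid, in rows, on each array, in columns. Tgm2 and Hoxa5 lie high in OFT and p75-sorted cells, at intensities of 186 to 480, and low in LM and UM, at no more than 48.2.

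The genes most like each member were those with the highest Pearson correlation of log2 values over the 8 arrays. For Aldh1a1 they were Ryr2, Lrrtm4 and Fabp3, with correlations of 0.996, 0.987 and 0.981. For Aldh1a2 they were Rab7, Smug1 and Col14a1, at 0.994 to 0.996, and for Aldh1a3 Pid1, Six2 and Tbx2, at 0.98. Ryr2 and Fabp3 are heart muscle genes, and Six2 and Tbx2 encode transcription factors of facial mesenchyme. Cyp26a1 went with Elmod1, Fam133b and Rtraf, at 0.96 to 0.97, and Cyp26b1 with Acad8, Spdya and Cnot9, at 0.97 to 0.99. For Crabp1 they were Galm, Gm2102 and Dpep1, at 0.95 to 0.97, for Crabp2 Tril, Tmem218 and Nbl1, at 0.97 to 0.99, and for Rarb Cxcr4, Pls1 and A930006K02Rik, at 0.97 to 0.99. Cxcr4, a chemokine receptor gene, had intensities of 256 and 243 in UM, 129 and 171 in OFT, 83.5 and 97.0 in LM, and 21.7 and 11.2 in p75-sorted cells, the same order of origins as Rarb. With 4 origins and 13545 genes, high values are common, and they say nothing of shared control.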

How the data were processed

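The authors deposited 1 intensity per probe set and array, on a linear scale, as the series' value table. No source used here names the software that made them. Their mean between the 2nd and 98th percentile was 150 on each of the 8 arrays, so they were not scaled again. Probe sets were named by the platform annotation, with 34945 matching 1 gene and 932 several, which were left out. Differences used log2(intensity + 32), where an intensity of 0 is 5, which understates changes of dim genes. A gene was tested if at least 2 arrays exceeded the 40th percentile of all values, 19.4, leaving 13545 genes. limma 3.58.1 in R 4.3.3 (lmFit, eBayes) fitted a term per origin and 1 for genotype, with 3 residual degrees of freedom. To these eBayes added 9.06 prior degrees of freedom, drawn from all tested genes. The script was tested on simulated data. Calls are at an adjusted p under 0.05 (Benjamini-Hochberg). Replicate pairs came from the origin label. The members and lists were chosen with earlier results of these data known. All members are named in each comparison, and from each other list at most 3 called genes per direction, by size of fold. Alternatives were other pseudocounts, scalings, filters, probe set choices, an intensity trend, other model terms and leaving out arrays or pairs. The number of arrays limits the precision.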

Additional observations from a re-analysis of the deposited data

Results flagged for a closer look

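Among 51 members and genes of the retinoid lists, 2 had 1 origin far from the other 3 in the mutant minus control difference, where chance alone sets about 1 in 20 such groups apart. Rdh5, an enzyme of retinol oxidation, differed by -0.35 in UM and by -0.13 to -0.11 in the other origins. Adh1, an alcohol dehydrogenase, differed by 0.39 in UM and by -0.17 to -0.10 elsewhere. Both were dim, at intensities of 15.1 to 33.0 and 13.2 to 44.4.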

How the results depend on the processing

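Of the 56 results for members, 27 passed the test. Of these 15 kept their call in each alternative run, 12 lost it in at least 1, and 0 changed direction. Of the 29 that did not pass, 3 gained a call in at least 1 alternative and 10 changed sign.

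At a pseudocount of 1 the number of called genes was 64 between LM and UM (211 as reported), 613 between OFT and LM (1483), 796 between OFT and UM (1638) and 2845 between p75-sorted cells and OFT (4693). Leaving out 1 array gave 110 to 223 between LM and UM, 507 to 1566 between OFT and LM, 646 to 1895 between OFT and UM, 3227 to 5877 between p75-sorted cells and LM, 1817 to 5035 against OFT, 3086 to 5984 against UM, and 0 to 1 between mutant and control. The 1 gene came without the LM pair. The cause was not tested.

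Signs turned in results that did not pass. For mutant against control, Aldh1a2 was 0.0087 with quantile normalization, 0.011 with a common median, 0.083 and 0.033 when the OFT or the UM pair was left out. Aldh1a3 was -0.0011 and Rarb 0.051 without the p75-sorted pair. Crabp2 was 0.055 without the LM pair and 0.11 without the OFT pair, and Cyp26b1 -0.12 without the p75-sorted or the UM pair. Between p75-sorted cells and UM, Crabp2 was -0.092 with quantile normalization, -0.097 with a common median, and -0.30 and -0.19 without the p75-sorted mutant or the UM control, and Aldh1a1 was 0.082 and 0.0051 without the same arrays. Crabp1 between p75-sorted cells and LM was -0.025 with a common median. Cyp26a1 between LM and UM was -0.010 without the LM mutant and -0.11 without the UM control, and Cyp26b1 between OFT and LM 0.15 without the OFT mutant. Leaving out each array in turn moved the mutant minus control difference from -0.099 to 0.083 for Aldh1a2, -0.0011 to 0.18 for Aldh1a3, -0.21 to 0.11 for Crabp2, -0.12 to 0.22 for Cyp26b1 and -0.13 to 0.051 for Rarb. It moved Aldh1a1 from -0.21 to 0.082 and Crabp2 from -0.30 to 0.34 between p75-sorted cells and UM, Cyp26a1 from -0.11 to 0.63 between LM and UM, and Cyp26b1 from -0.62 to 0.15 between OFT and LM. Rdh11, which had passed between p75-sorted cells and UM, was -0.14 with the mean of its probe sets.

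Calls were gained by Aldh1a2 between OFT and LM, by Crabp1 between p75-sorted cells and OFT, and by Rarb between OFT and UM. The replicate block was the origin, which pairs each mutant with its control by label. With no replicate block, 0 genes were called between mutant and control, as with it. Signal near background limits Aldh1a1 everywhere but in OFT, Aldh1a3 in OFT and LM, and Cyp26a1 in OFT.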

Other observations

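Of the 13545 tested genes, Ttr had the largest difference between mutant and control in the OFT pair, at -4.45 on the log2 scale, and the next largest size was 2.26. All 4 of its probe sets were lower in the OFT mutant, with intensities in the OFT control and mutant of 814 and 6.82, 404 and 8.65, 347 and 2.77, and 155 and 1.56. In the p75-sorted pair the same 4 were lower in the mutant, at 989 and 464, 760 and 349, 427 and 141, and 150 and 98.4. On the LM and UM arrays they ranged from 0.32 to 10.1. Afp, the fetal serum protein gene, had intensities of 5.30 and 7.38 in the OFT control and mutant and 91.0 and 71.9 in p75-sorted cells. Alb, the serum albumin gene, had 12.7 and 10.9 in OFT and 14.8 and 42.1 in p75-sorted cells. Rbp4, the retinol carrier that travels with Ttr, had 16.9 and 24.3 in OFT. Folr1 and Kl, which are strong in the choroid plexus as Ttr is, had 24 and 18.4, and 5.86 and 6.41, in OFT. In p75-sorted cells Rbp4 had 25.4 and 29.2, Folr1 16.9 and 32.7, and Kl 0.436 and 1.40. These companion genes were chosen after the values were seen, and each origin has 1 array per genotype.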
